A study of Mus musculus with 6 samples.

Results

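The genes described here make, break down and bind hyaluronan. They are the synthases Has1, Has2 and Has3, the hyaluronidases Hyal1, Hyal2 and Hyal3, the receptor gene Cd44 and Tnfaip6, 8 of the 34745 genes in the deposited table, and all 8 had a row under their symbol. The set was chosen by the inhibitor-over-DMSO fold change of Hyal1, which was among the largest rises, and the other 7 genes were added by function. The fold changes and calls of the 8 genes are therefore a description and not a test of the set. RNA sequencing was done on wild-type mouse bone marrow-derived macrophages, primary cells differentiated in M-CSF at 20 ng/ml. Every culture was stimulated for 6 h with R848 at 100 ng/ml, an agonist of endosomal Toll-like receptors. Before R848, 3 samples had received DMSO and 3 a KAT8 inhibitor. KAT8 is a lysine acetyltransferase that acts on histone H4. The sources used here do not give the compound, its dose or the strain, sex and age of the mice, and every comparison is between stimulated cells.

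Hyaluronan is a long unbranched sugar polymer of the extracellular matrix. Synthases in the plasma membrane extrude it and build it from UDP-glucuronic acid and UDP-N-acetylglucosamine. HYAL2, anchored at the cell surface, cuts long chains into fragments, and HYAL1, a lysosomal enzyme, cuts the fragments further before exoglycosidases take them apart. CD44 is the main hyaluronan receptor of leukocytes, and TSG-6, the product of Tnfaip6, is secreted in inflammation and transfers protein chains onto hyaluronan.

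The sequences upstream of Has1 and Hyal1 are shown because these 2 genes differed most between the groups, in opposite directions. RefSeq promoter windows (GRCm38.p6, the mm10 build) were found for 6 of the 8 genes. The 250 bases before the RefSeq start of Has1 are chr17:17855189-17855438 on the minus strand, and those of Hyal1 are chr9:107576700-107576949 on the plus strand. Both are printed 5′ to 3′. In the GENCODE M21 annotation used below, Has1 starts at 17855205 and Hyal1 at 107576927, inside these windows. The last bases of each window are therefore within the annotated gene, and distances are given from the RefSeq start. Capitals mark the cyclic AMP response element letters TGACGTCA in Has1 and, in Hyal1, the letters of a CCAAT box, which lies on the opposite strand.
Has1 upstream: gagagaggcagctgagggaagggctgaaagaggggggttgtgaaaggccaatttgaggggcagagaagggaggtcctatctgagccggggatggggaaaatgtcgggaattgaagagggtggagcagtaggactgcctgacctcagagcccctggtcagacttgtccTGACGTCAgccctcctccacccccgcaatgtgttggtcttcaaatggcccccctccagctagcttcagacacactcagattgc
Hyal1 upstream: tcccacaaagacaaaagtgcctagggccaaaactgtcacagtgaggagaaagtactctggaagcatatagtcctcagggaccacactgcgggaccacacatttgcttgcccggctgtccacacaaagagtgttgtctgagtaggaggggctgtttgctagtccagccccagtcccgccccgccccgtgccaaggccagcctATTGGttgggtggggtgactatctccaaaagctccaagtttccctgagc
Each window was searched on both strands for 6 motifs, which were TGACGTCA, CCAAT, the AP-1 letters TGANTCA, the antioxidant response element core TGACNNNGC, the aryl hydrocarbon receptor core GCGTG and the E-box CACGTG. TGACGTCA began 83 bases before the Has1 start and was present in 1.62% of 27025 windows of the same length. CCAAT began 49 bases before the Hyal1 start and 203 bases before the Has1 start, and 34.5% of windows held it. The other 4 sets of letters were in neither window and in 6.87% (TGANTCA), 10.1% (TGACNNNGC), 28.2% (GCGTG) and 6.05% (CACGTG) of all windows. These are matches of letters and not binding sites.

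The hyaluronidases are related in sequence, and whether a read could belong to more than 1 of them bears on every value below. The stretches holding the longest identical coding runs are shown for that reason, with the run in capitals. Numbers are positions in the longest annotated coding sequence. Hyal1 from 437 to 490 and Hyal2 from 365 to 418 share 14 bases.
Hyal1 coding: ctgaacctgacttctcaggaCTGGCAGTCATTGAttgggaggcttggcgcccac
Hyal2 coding: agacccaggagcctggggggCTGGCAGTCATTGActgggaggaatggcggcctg
Hyal1 from 651 to 705 and Hyal3 from 564 to 618 share 15 bases.
Hyal1 coding, later: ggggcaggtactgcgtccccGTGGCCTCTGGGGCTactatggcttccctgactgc
Hyal3 coding: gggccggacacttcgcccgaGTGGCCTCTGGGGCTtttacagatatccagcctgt
Over whole transcripts, with the parts outside the coding sequence, Hyal1 and Hyal3 shared a run of 121 bases. The longest coding run shared by Hyal2 and Hyal3 was 13 bases. Among the synthases it was 17 bases for Has1 with Has2, 17 for Has1 with Has3 and 23 for Has2 with Has3. The sources used here do not give the read length.

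Reads of Hyal1 can be shared for another reason, which is overlap on the chromosome. In the GENCODE M21 annotation of mm10, Hyal2 (ENSMUSG00000010047; chromosome 9, 107567945 to 107572779), Hyal1 (ENSMUSG00000010051; 107576927 to 107581710) and Hyal3 (ENSMUSG00000036091; 107580818 to 107587359) lie one after another on the plus strand. Naa80, an N-terminal acetyltransferase gene, starts within Hyal1 on the same strand. Of the 3777 exon bases of Hyal1 over all transcripts, 1920 are also exon of Naa80 and 159 of Hyal3, which leaves 48.1% to Hyal1 alone. Of its coding bases 70.7% are in no other gene. Hyal1 and Hyal3 share no coding base. Hyal2, Has1, Cd44 and Tnfaip6 overlap no other annotated exon. Exons of Has2 share 182 bases with Has2os, and those of Has3 share 352 with Chtf8, both on the opposite strand. The sources used here do not say whether the counting used strand or how it treated shared exons.

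Library totals were 18441352 to 25089320 counts, and levels are given as CPM, counts scaled for library size. For a gene with a count of 0, the upper limit (3 counts, counting error only) lay between 0.116 and 0.166 CPM. The 10 macrophage markers were all detected, and their summed level was 12473 to 14249.9 CPM with DMSO and 8096 to 8146 CPM with the inhibitor (7 of 10 lower). Lyz2 was the largest part of this sum, at 8596 ± 632 and 4190 ± 37.1 CPM. Csf1r, Cd68 and Spi1 were not called. Stromal markers were present too, and 8 of 10 were lower with the inhibitor. Their summed level went from 4502 to 5305 CPM in the DMSO libraries to 2020.2 to 2153 CPM in the inhibitor libraries, and none of them was at 0. Endothelial markers summed to 55.7 to 57.1 and 13.1 to 13.7 CPM (2 of 3 tested lower, Emcn at 0). Vwf was the largest part of this sum, at 51.1 ± 1.08 and 9.40 ± 0.386 CPM, and Cdh5 was not called. Granulocyte markers summed to 6.41 to 7.16 and 2.08 to 2.93 CPM (2 of 2 tested lower, with Ly6g, S100a9, Elane and Ngp at 0). Markers of dendritic cells summed to 18.2 to 20.5 and 10.8 to 11.6 CPM (2 of 2 tested lower, Siglech at 0) and those of lymphocytes to 1.61 to 2.04 and 1.12 to 1.32 CPM (1 of 9 tested and not called, with Cd8a, Nkg7 and Ncr1 at 0). Of all 13815 tested genes, 26.5% were called lower and 24.9% higher. In bulk RNA, fewer cells of a type and less RNA per cell cannot be told apart. The labels do not say that replicates were separate cultures or animals, so the spread behind the p-values may be technical.

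With the inhibitor, the synthase genes Has1 and Has2 were lower and the hyaluronidase genes Hyal1 and Hyal2 higher. Has3 and Cd44 were not called. Has1 was 17.3-fold lower and Has2 2.17-fold lower. Hyal1 was 5.87-fold higher and Hyal2 1.67-fold higher. Tnfaip6 was 1.73-fold lower. Of the 7 genes that passed the filter on low counts, 2 were called higher and 3 lower at an adjusted p under 0.05. Over all 13815 tested genes 51.5% were called, 24.9% higher and 26.5% lower, and since Hyal1 was chosen through this contrast nothing is read from the share of the 8 genes. The median log2 fold change was −0.18 for the 7 genes and 0.01 for all tested genes. Hyal3 did not pass the filter. The groups were apart for 6 of the 7, against 60.6% of all tested genes.

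**Figure D1:**
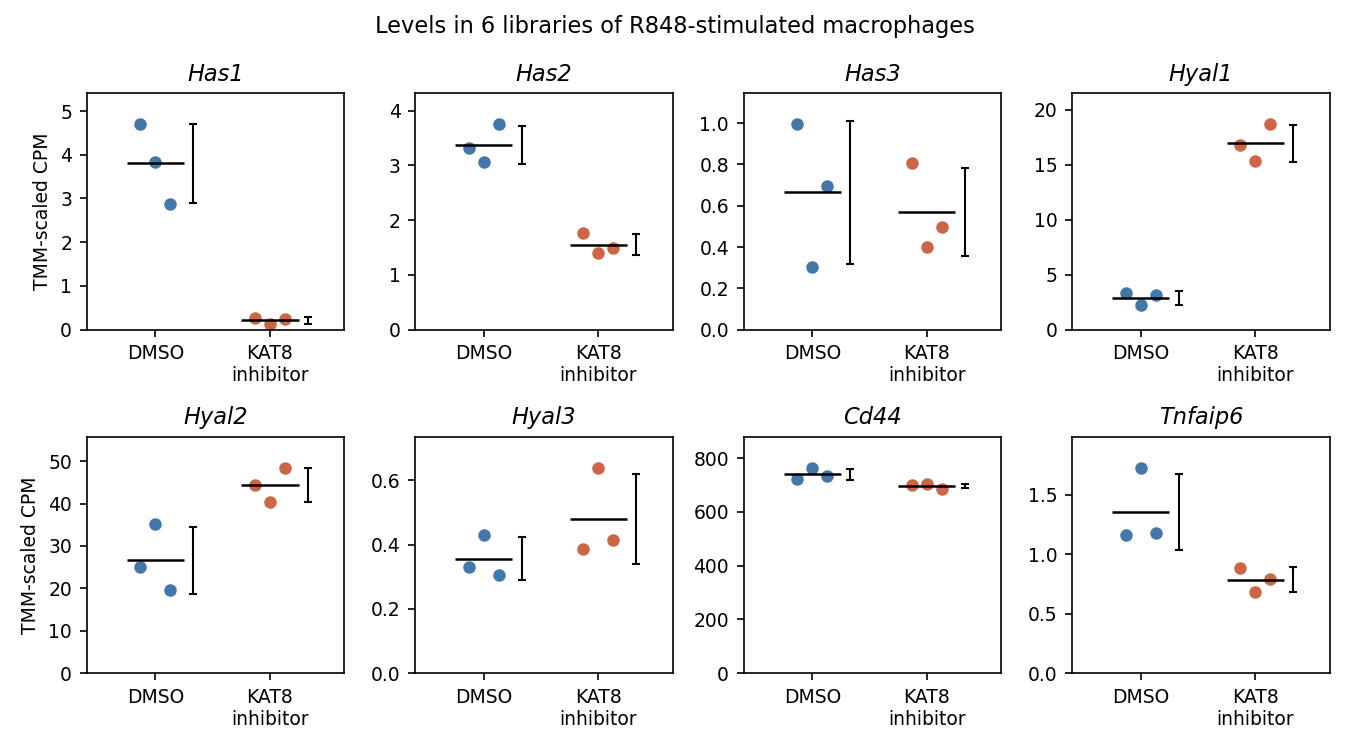
Level of each of the 8 genes in TMM-scaled CPM (vertical axis, starting at 0, a different scale in each panel) in 3 DMSO libraries (blue) and 3 KAT8 inhibitor libraries (orange), with the mean as a line and the SD as a bar beside it. Has1, Has2 and Tnfaip6 lie lower and Hyal1 and Hyal2 higher with the inhibitor, Has3 and Hyal3 overlap, and the small difference of Cd44 changes sign when library totals are used for scaling.

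Has1 (ENSMUSG00000003665; chromosome 17, 17843323 to 17855205, minus strand) had the largest difference of the 8 genes. Its counts were 85, 89 and 66 with DMSO against 7, 3 and 6 with the inhibitor. Scaled to library size, these were 4.70, 3.84 and 2.88 CPM against 0.270, 0.120 and 0.249 CPM. Every DMSO library was above every inhibitor library, and inhibitor replicate 2, at 3 counts, stood at the limit that a count of 0 allows. The mean was 3.80 ± 0.909 CPM against 0.213 ± 0.0812 CPM (SD, n = 3). The log2 fold change was −4.12 (SE 0.33). Leaving out any 1 library moved it between −4.32 and −3.84. Among the 6310 tested genes with a negative fold change and at least 1 CPM in the higher group, Has1 ranked 6. Has1 passed the filter on low counts and the 1 CPM limit through its DMSO libraries alone, so this rank is a description.

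Has2 (ENSMUSG00000022367; chromosome 15, 56665627 to 56694539, minus strand) encodes the synthase that is essential for heart development in mouse embryos. Its levels were 3.31, 3.06 and 3.75 CPM with DMSO and 1.77, 1.40 and 1.49 CPM with the inhibitor. The groups did not overlap, and the log2 fold change was −1.11 (SE 0.17). Has3 (ENSMUSG00000031910; chromosome 8, 106870242 to 106884566, plus strand) was near the filter in every library, at 0.994, 0.302 and 0.698 CPM with DMSO and 0.809, 0.400 and 0.498 CPM with the inhibitor. Its values overlapped and it was not called (log2 fold change −0.18, SE 0.47). Its sign changed without DMSO replicate 1 (0.19) and without inhibitor replicate 2 (0.022).

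Stromal markers fell in the same libraries as Has1 and Has2 (8 of 10 lower, summed level 4502 to 5305 against 2020.2 to 2153 CPM, none at 0). Over all tested genes 26.5% were called lower. The part of the stromal markers in the synthase difference was not tested. The stromal markers that were not called were Lum and Pdgfra, and Pdgfra stood at 418 ± 30.3 CPM with DMSO and 442 ± 20.5 CPM with the inhibitor.

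Per exon length, the 3 synthases together stood at 1.74 ± 0.205 CPM per kb with DMSO and 0.503 ± 0.0942 CPM per kb with the inhibitor. The make-up of this sum differed between the groups. Has1 gave 48.0% ± 7.82 of it with DMSO (39.0% to 52.6% over the libraries) and 9.17% ± 2.56 with the inhibitor (6.33% to 11.3%). Has2 gave 46.2% ± 7.47 and 73.5% ± 4.81. With the inhibitor, Has2 was therefore the main synthase transcript, whereas Has1 and Has2 were at like levels with DMSO.

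Hyal1, the lysosomal hyaluronidase, had counts of 61, 51 and 72 with DMSO against 437, 384 and 450 with the inhibitor. These were 3.37, 2.20 and 3.14 CPM against 16.8, 15.3 and 18.7 CPM. All 3 inhibitor libraries lay far above all DMSO libraries. The mean was 2.90 ± 0.620 CPM against 16.95 ± 1.67 CPM (SD, n = 3). The log2 fold change was 2.55 (SE 0.16). Among the 6557 tested genes with a positive fold change and at least 1 CPM in the higher group, Hyal1 ranked 22, and among the 5553 at 5 CPM or more it ranked 8. These ranks restate the choice of Hyal1 for its rise in this contrast. Hyal1 met the 5 CPM limit through the inhibitor group alone. Leaving out single libraries moved its log2 fold change between 2.38 and 2.66.

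Hyal2, the cell surface hyaluronidase, had counts of 455, 813 and 448 against 1149, 1011 and 1167. Its levels were 25.1, 35.1 and 19.5 CPM against 44.3, 40.4 and 48.4 CPM. DMSO replicate 2 was the highest of its group and still below every inhibitor library. The log2 fold change was 0.74 (SE 0.19), and it ranged from 0.55 to 0.99 when single libraries were left out. Hyal3, whose enzyme activity is weak, was barely detected, with 6, 10 and 7 counts (0.331, 0.431 and 0.305 CPM) against 10, 16 and 10 (0.385, 0.639 and 0.415 CPM). Its groups overlapped, and it was not tested. The ratio of Hyal1 to Hyal3 counts was 5.10 to 10.3 with DMSO and 24.0 to 45.0 with the inhibitor. Hyal1 was chosen for its rise in this contrast and Hyal3 had 6 to 16 counts, so this ratio is a description.

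Summed per exon length, the 3 hyaluronidases stood at 9.04 ± 2.31 CPM per kb with DMSO and 18.2 ± 1.60 CPM per kb with the inhibitor. Hyal2 was the larger part in all 6 libraries. Hyal1 gave 9.13% ± 3.60 of the sum with DMSO and 24.6% ± 0.252 with the inhibitor (24.4% to 24.9%). Hyal2 gave 88.8% ± 3.76 and 74.0% ± 0.351. These shares depend on how reads in the shared exons of Hyal1 were counted, which is not known.

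Cd44 (ENSMUSG00000005087; chromosome 2, 102811141 to 102901665, minus strand) was by far the most abundant of the 8. Its levels were 724, 764 and 733 CPM with DMSO and 700.1, 702.5 and 686 CPM with the inhibitor. The log2 fold change was −0.09 (SE 0.040) and did not pass, and with library totals as the scaling it was 0.021. It passed without DMSO replicate 1 (−0.11). Counts per gene do not separate its splice forms.

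Tnfaip6 (ENSMUSG00000053475; chromosome 2, 52038009 to 52056686, plus strand) had counts of 21, 40 and 27 against 23, 17 and 19. Scaled, these were 1.16, 1.73 and 1.18 CPM against 0.886, 0.679 and 0.789 CPM. The groups did not overlap, but DMSO replicate 2 stood apart from the other DMSO libraries. The log2 fold change was −0.79 (SE 0.26). The call was lost without DMSO replicate 2 (−0.58), without inhibitor replicate 1 (−0.89), 2 (−0.70) or 3 (−0.79), with DESeq2 (−0.80), with the replicate block (−0.78), when low counts were not filtered (−0.78) and when scaling used library totals (−0.68).

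**Figure D2:**
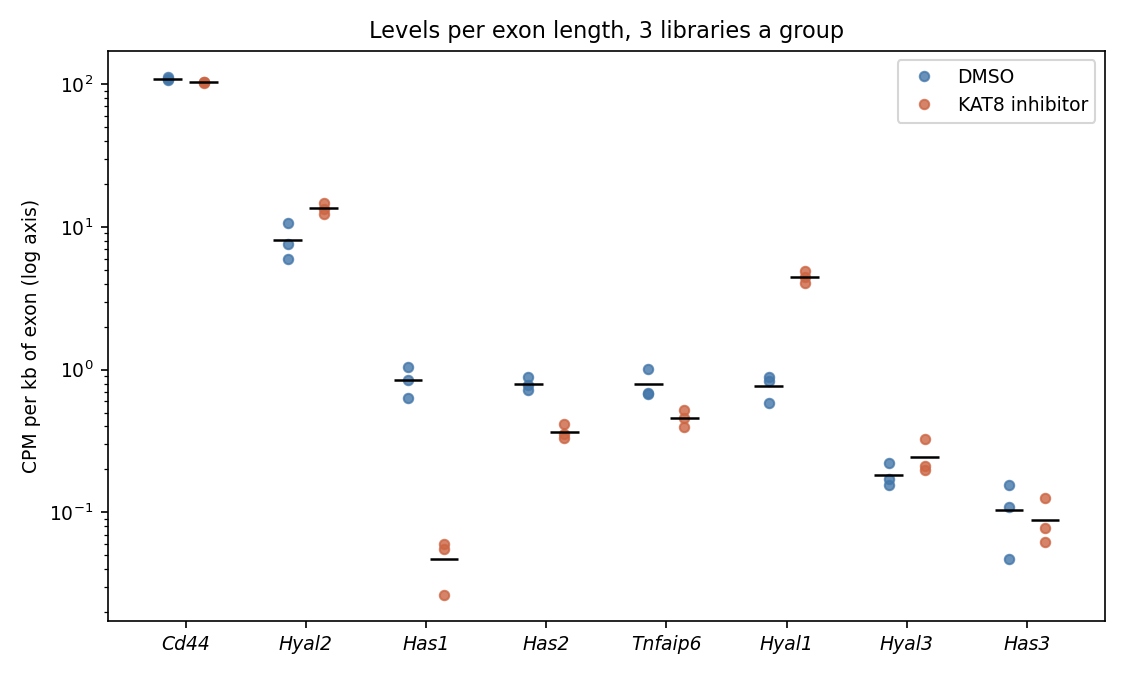
Level of each gene in CPM per kb of annotated exon (vertical log axis), for 3 DMSO libraries (blue) and 3 KAT8 inhibitor libraries (orange), with the mean as a line and genes ordered by their DMSO mean. Has1, Has2, Tnfaip6 and Hyal1 lie together with DMSO and spread apart with the inhibitor, Hyal1 to 4.49 and Has1 to 0.0471 CPM per kb. The length of Hyal1 includes exon bases shared with other genes, so its place depends on how shared reads were counted, which is not known.

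The order of the genes by level per exon length differed between the groups. With DMSO, Cd44 led at 109 ± 3.10 CPM per kb (SD, n = 3), followed by Hyal2 at 8.07 ± 2.39 CPM per kb. Has1 (0.842 ± 0.201), Has2 (0.797 ± 0.0821), Tnfaip6 (0.792 ± 0.188) and Hyal1 (0.769 ± 0.164 CPM per kb) came next and differed from each other by less than their spread. Only 48.1% of the exon bases of Hyal1 are in no other gene, so its level per length depends on how shared reads were counted. Hyal3 (0.183 ± 0.0342) and Has3 (0.104 ± 0.0545 CPM per kb) were lowest. With the inhibitor, Cd44 and Hyal2 still led, and Hyal1 came next at 4.49 ± 0.442 CPM per kb. Tnfaip6 (0.459 ± 0.0605) and Has2 (0.367 ± 0.0458 CPM per kb) overlapped. Has1, at 0.0471 ± 0.0180 CPM per kb, was the lowest of the 8, below Has3 at 0.0892 ± 0.0335 CPM per kb.

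The genes around Hyal1 on chromosome 9 moved in both directions. Of 17 listed neighbours, spanning −177.3 to 296.3 kb around its start, 12 were tested, of which 6 rose and 3 fell, against 24.9% and 26.5% of all tested genes. Their median log2 fold change was 0.19. No neighbour rose as much as Hyal1, but Hyal1 was chosen for its large rise, so nothing is read from this. Tmem115, a Golgi membrane protein gene, rose most (0.77, SE 0.071), from 44.7 ± 4.20 to 76.4 ± 1.70 CPM (adjusted p = 5.25e-05, Benjamini-Hochberg adjustment of edgeR's quasi-likelihood test, as for all adjusted p-values here). Tusc2, next to Hyal2, rose from 23.7 ± 2.04 to 34.6 ± 2.17 CPM. Rbm5, an RNA-binding protein gene, rose by 0.37, and Nprl2, of a complex that restrains mTORC1, by 0.34 on the log2 scale.

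Naa80, which shares 60.9% of its exon bases with Hyal1, rose 1.49-fold (0.58, SE 0.16, adjusted p = 0.0173), against 5.87-fold for Hyal1. The call was lost without inhibitor replicate 2 (adjusted p = 0.059) or 3 (0.054). Ifrd2, the gene after Hyal3, fell from 28.1 ± 1.07 to 20.7 ± 2.30 CPM. Sema3f, a secreted semaphorin gene, fell 2.53-fold, and Cyb561d2, a cytochrome gene, fell 1.41-fold. Cyb561d2 lost its call without DMSO replicate 2 (adjusted p = 0.102) or 3 (0.11), without inhibitor replicate 1 (0.102) or 2 (0.0711) and with library totals (0.0712). Nprl2 lost its call without DMSO replicate 2 (0.0873) or 3 (0.116), without inhibitor replicate 1 (0.108) or 2 (0.115), and with DESeq2 (0.0646). Part of the reads of Rassf1 and Tusc2 could come from Gm9917 on the opposite strand, which had 38 counts over all libraries. Part of those of Naa80 could come from Hyal1 on the same strand, since the counting of shared exons is not known.

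**Figure D3:**
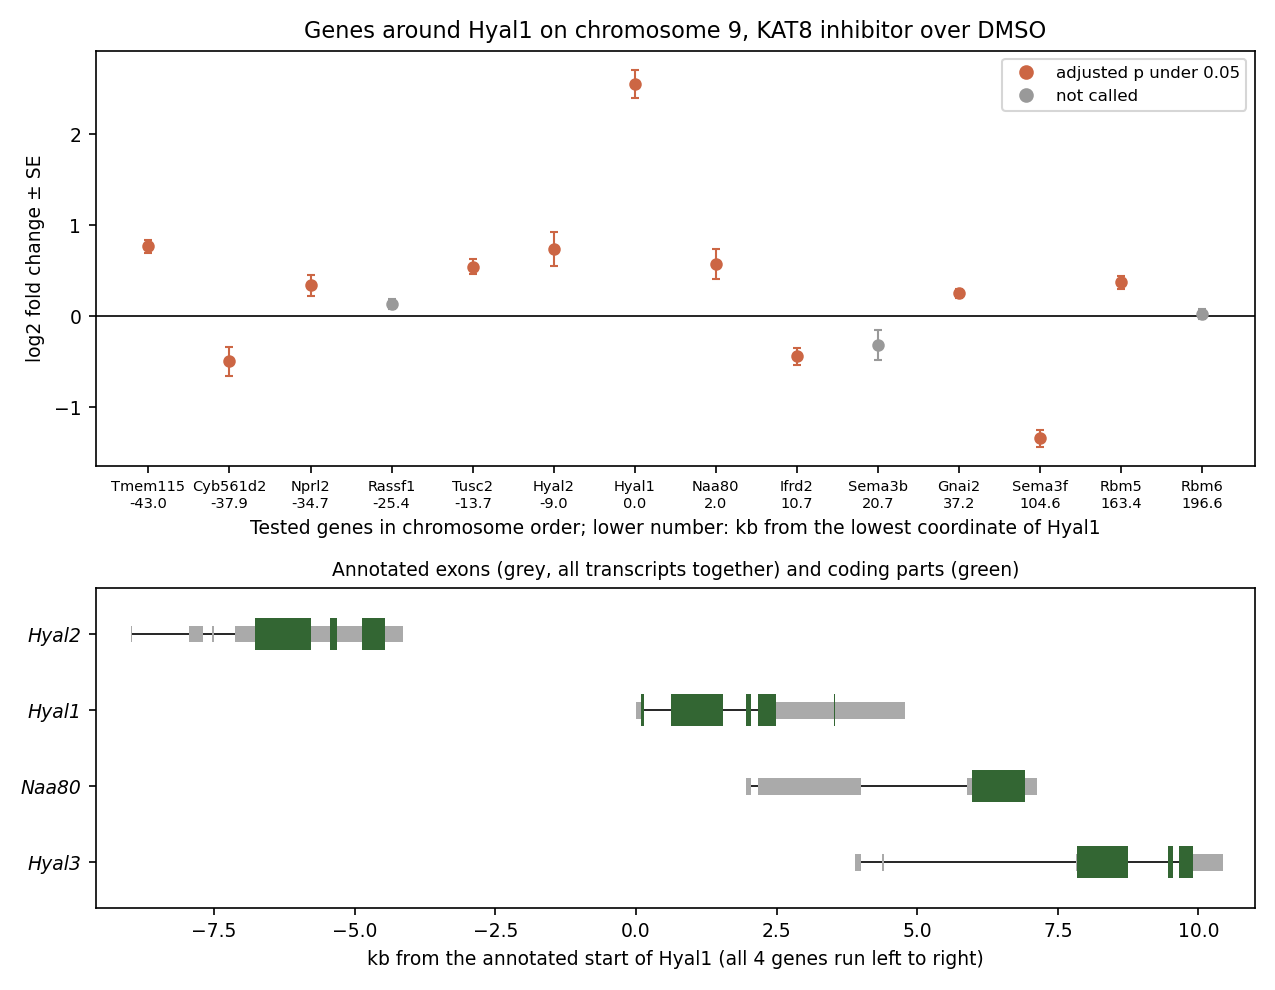
Upper panel: log2 fold change, KAT8 inhibitor over DMSO, with its SE for the tested genes around Hyal1 in chromosome order (orange, called at an adjusted p under 0.05; grey, not called). Lower panel: annotated exons and coding parts of Hyal2, Hyal1, Naa80 and Hyal3 to scale in kb from the Hyal1 start. Hyal1, which was chosen for its large rise, stands above its neighbours, and its 3′ exons are shared with Naa80.

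By the smallest root mean square difference of centred log2 CPM over the 6 libraries, the 5 genes most like Hyal1 among 10361 at 5 CPM or more were Ednrb (0.193), Il1f9 (0.217), Serpinb2 (0.26), Gsta3 (0.263) and Rhov (0.278). They were chosen for this likeness, so their levels are a description. Ednrb, an endothelin receptor gene, went from 18.8 ± 1.33 to 114.0 ± 5.93 CPM (log2 fold change 2.60). Il1f9, which encodes interleukin-36 gamma, went from 5.20 ± 0.834 to 25.5 ± 1.99 CPM (2.30). Serpinb2, the plasminogen activator inhibitor 2 gene, was the most abundant of the 5 by CPM, at 124 ± 5.88 and 566 ± 14.0 CPM.

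The rest of the hyaluronan pathway and related genes were followed through 57 genes in 5 lists, of which 38 passed the filter. Of these 9 rose and 18 fell, with a median log2 fold change of −0.16, against 24.9% and 26.5% of all tested genes. Of 11 genes for the supply of sugar nucleotides 4 rose and 2 fell (median 0.00). Ugdh, which makes UDP-glucuronic acid, rose from 81.2 ± 1.08 to 104 ± 3.33 CPM (log2 fold change 0.36, SE 0.043, adjusted p = 0.000233). Ugp2, which makes UDP-glucose for it, rose by 0.39, Pgm1 by 0.27, and Gfpt1, the entry enzyme of the hexosamine branch, by 0.17. Nagk, which salvages N-acetylglucosamine, fell 1.74-fold, from 49.8 ± 4.32 to 28.6 ± 0.939 CPM (adjusted p = 5.48e-05). Uap1l1 fell by 0.26 and lost its call with library totals (adjusted p = 0.0505). Uap1, the last enzyme before UDP-N-acetylglucosamine, was at 57.1 ± 4.56 and 60.3 ± 0.966 CPM and did not pass.

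Among the other listed enzymes of glycosaminoglycan breakdown 6 of 10 were tested, and 5 fell and 1, Idua, rose (median −0.39). Over all tested genes 26.5% were called lower and 24.9% higher. Hyal4, Hyal5, Hyal6 and Spam1 were at 0 in all libraries. Cemip, a hyaluronan-depolymerising protein of fibroblasts, fell 1.93-fold, from 82.1 ± 7.15 to 42.4 ± 4.13 CPM (adjusted p = 5.84e-05). Cemip2, its transmembrane relative, fell by 0.39 on the log2 scale. The lysosomal exoglycosidase genes Hexa and Gusb fell as well. Hexa fell by 0.42 on the log2 scale (adjusted p = 0.00204), and Gusb went from 775 ± 29.9 to 591 ± 20.3 CPM. Idua is an iduronidase gene of glycosaminoglycan breakdown, and hyaluronan is not its substrate. Its level rose by 0.45, and the call was lost without inhibitor replicate 1 (0.0827), 2 (0.0995) or 3 (0.0704). The lysosomal exoglycosidases Hexa and Gusb and the lysosomal hyaluronidase Hyal1 thus differed in direction. Stromal markers were lower beside Cemip (8 of 10), and their part was not tested.

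Among receptors and sensors 5 of 8 were tested, and 2 rose and 3 fell (median −0.84). Of all tested genes, 24.9% were called higher and 26.5% lower. Layn, which encodes the hyaluronan receptor layilin, rose 3.48-fold, from 29.3 ± 1.67 to 102 ± 3.55 CPM (adjusted p = 4.19e-07). Tlr2, a bacterial lipoprotein receptor that hyaluronan fragments have been reported to engage, fell 2.17-fold, from 527 ± 20.2 to 243 ± 6.87 CPM. Tlr4, the endotoxin receptor, rose from 7.24 ± 1.31 to 11.7 ± 2.93 CPM (adjusted p = 0.0235), a call lost without DMSO replicate 1 (0.0709), without inhibitor replicate 1 (0.0772) or 3 (0.0589) and with the replicate block (0.0523). Stab1, a scavenger receptor, fell 1.79-fold. Hmmr, a hyaluronan-binding protein that also acts on the mitotic spindle, fell 1.99-fold, from 23.3 ± 2.13 to 11.7 ± 1.25 CPM. All 16 G2 and mitosis genes listed were lower beside it, with summed levels of 580 to 649 against 239.0 to 275 CPM, and their part in the Hmmr difference was not tested. Lyve1, a receptor of lymphatic vessels and some tissue macrophages, had 2 to 7 counts a library and was not tested.

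Most matrix partners did not pass the filter on low counts. Of 16 listed 3 were at 0 in all libraries and 4 were tested, of which 3 fell and 1 rose. The shares over all tested genes were 26.5% lower and 24.9% higher. Itih5, a heavy chain gene, fell 1.85-fold, from 4.14 ± 0.706 to 2.24 ± 0.445 CPM. Ptx3, a pentraxin that cross-links the heavy chains with TSG-6, fell from 24.7 ± 1.35 to 16.9 ± 1.38 CPM (adjusted p = 0.000846). The proteoglycan gene Vcan fell by 0.21 (adjusted p = 0.0391) with overlapping groups, and the call was lost without DMSO replicate 1 (0.0955) or 3 (0.101), without inhibitor replicate 1 (0.116) or 2 (0.129) and with library totals (0.301). Prg4, which encodes lubricin, rose by 0.89 (adjusted p = 0.0366) from low counts, and lost the call without DMSO replicate 1 (0.103) or 2 (0.0758) or without inhibitor replicate 2 (0.0729) or 3 (0.118). The link protein genes Hapln1 to Hapln4 did not pass the filter.

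Exons of Ugp2, Pgm1, Pgm3, Gnpnat1, Cemip2, Hexa, Idua, Stab1, Prg4, Ezr, Msn and Adam17 overlap genes on the opposite strand. Those of Ugdh overlap Gm43552 and those of Spp1 overlap Gm42793 on the same strand. Part of the counts of these genes is therefore uncertain. Among the markers, Csf1r and Pdgfra overlap genes on the opposite strand, and Itgam shares 68.7% of its exon bases with Gm49368 on the same strand. Some other markers overlap as well.

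Of 12 partners, sheddases and other ligands of CD44, 5 fell and 1 rose (median −0.19), where 51.5% of all tested genes were called. Mmp9, a gelatinase that docks on CD44, fell 2.68-fold, from 103 ± 3.78 to 38.5 ± 0.154 CPM (adjusted p = 4.32e-07). Mmp14, which sheds CD44 from the cell surface, fell from 1079 ± 46.1 to 673 ± 8.25 CPM. Spp1, the CD44 ligand osteopontin, fell by 0.49. The moesin gene Msn, which links CD44 to actin, fell by 0.40, and its relative Ezr by 0.18, a call lost with library totals (adjusted p = 0.15). Nf2, which encodes the related protein merlin, rose by 0.25. The sheddase genes Adam10 and Adam17 did not pass, with wide spreads of 138 ± 35.9 and 510.1 ± 138 CPM with DMSO.

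**Figure D4:**
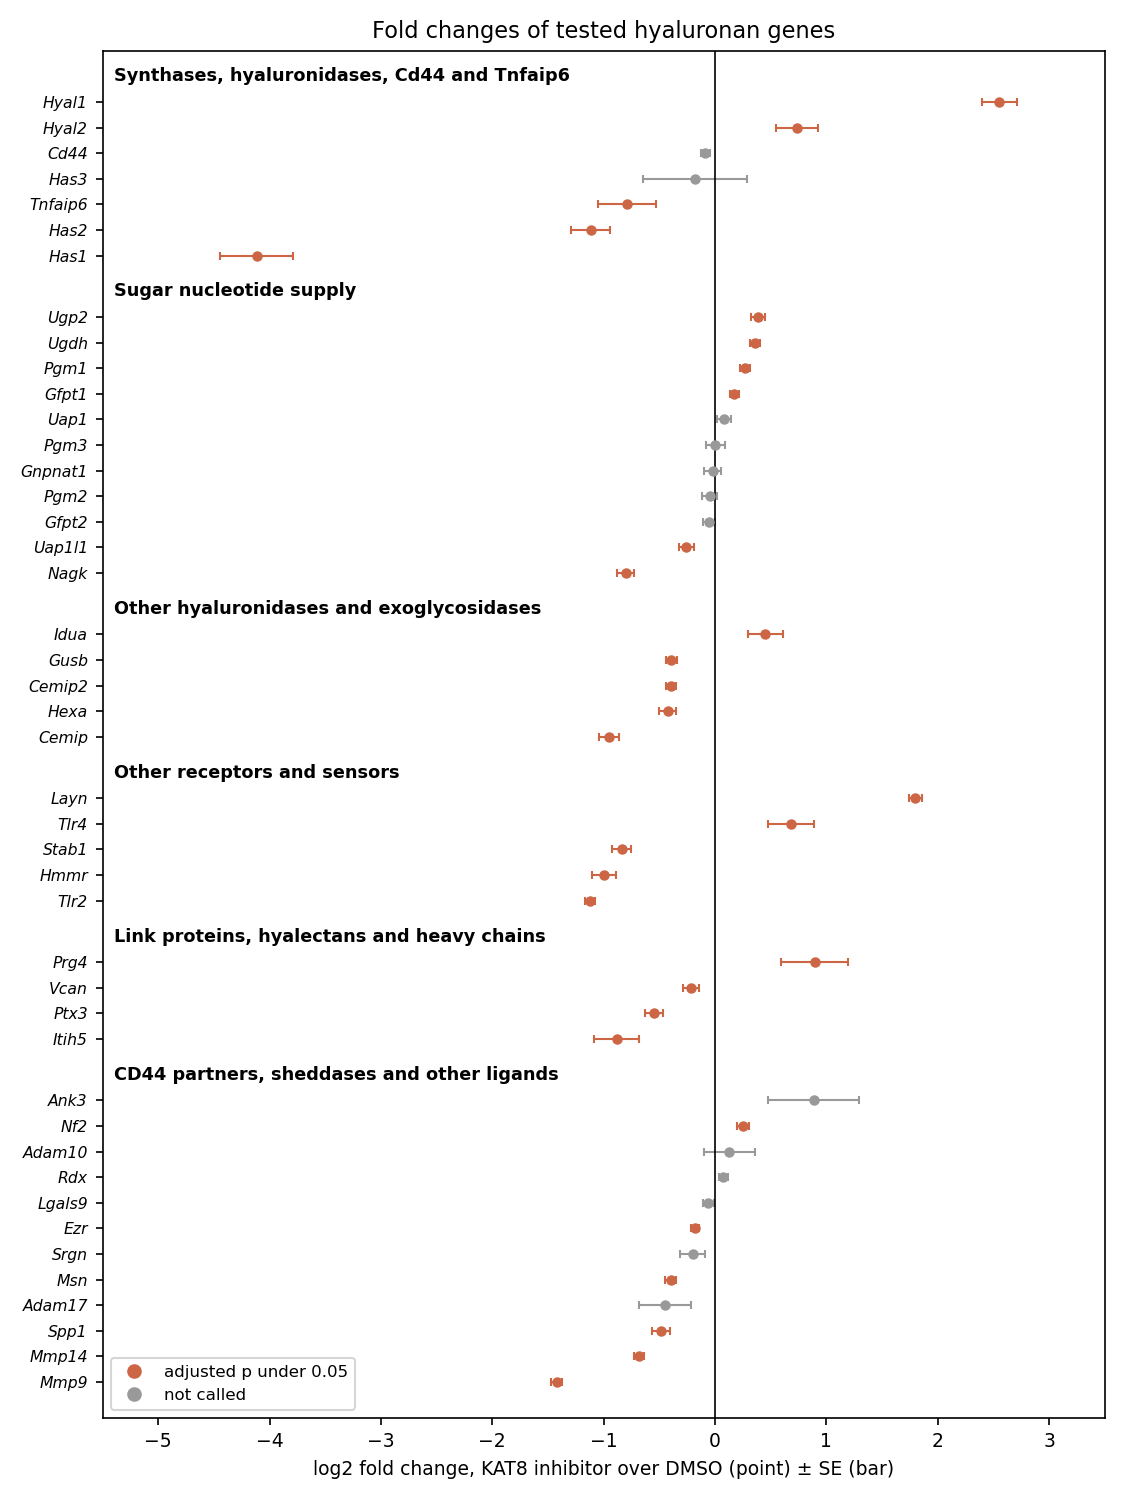
Log2 fold change, KAT8 inhibitor over DMSO (point), with its SE (bar) for the 7 tested genes of the set and the tested genes of the 5 pathway lists, 1 of them not shown (orange, called at an adjusted p under 0.05; grey, not called). Hyal1 and Layn lie furthest to the right and Has1 furthest to the left, and the small negative value of Cd44 changes sign with library totals as the scaling.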

How the data were processed

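The authors deposited raw read counts per Ensembl gene for 6 libraries, 1 column each, per the file headers. HISAT2, StringTie 1.3.0, edgeR and the build mm10 are named in the submitters' processing notes, and the read counter, annotation release and rules for strand and shared reads are not stated there or in the labels. Symbols and gene models came from GENCODE M21, which matched 34267 of 34745 identifiers.

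The main test was edgeR 4.0.16's quasi-likelihood test, run in R 4.3.3 on the counts (TMM scaling, filterByExpr with a minimum count of 10, pretreatment as the only factor). The test took 13815 genes, which held 99.9% of counts. A call means an adjusted p under 0.05 (Benjamini-Hochberg, over all tested genes). Standard errors were taken from the fold change and its F statistic. Levels are TMM-scaled CPM, divided for comparisons between genes by the exon length of all transcripts together. Replicates of a group differed beyond sampling noise (chi-square over its degrees of freedom 8.77 to 13.5 for pairs). The procedure was tested on simulated counts of 13815 genes. It recovered 56% of 1.5-fold, 80% of 2-fold, 98% of 4-fold and 96% of 8-fold changes. Of 171 genes called there, 6 were unchanged. Far fewer genes were changed in the simulation than the 51.5% called here, so a difference as broad as this was not tested.

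The 8 genes and the lists were chosen with earlier results of these data known. Named were the 8 genes, of each pathway list the 4 called genes at 1 CPM or more with the largest change and the most abundant, Naa80, Ifrd2 and up to 6 other called neighbours, and the 5 genes most like Hyal1, without predicted genes. Other names (Gfpt1, Gusb, Tlr4, Ezr, Nf2, Uap1, Lyve1, Adam10, Adam17, markers, genes at 0) were chosen after their values were seen. The values of 1 listed gene are not reported here. Alternatives were RLE size factors, library totals, no filter, a mean of 5 CPM, DESeq2 1.42.0, the replicate block, an adjusted p under 0.01, leaving out each library, and the longest transcript as the length.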

Additional observations from a re-analysis of the deposited data

How the results depend on the processing

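With library totals as the scaling, all tested genes had a median log2 fold change of 0.12 in place of 0.01, which gave 4888 genes higher and 2842 lower, against 3446 and 3667. It turned the log2 fold change of Cd44 to 0.021. That of Has3 turned to 0.19 without DMSO replicate 1 and to 0.022 without inhibitor replicate 2, and ranged from −0.55 to 0.19 when single libraries were left out. The other 46 of 48 genes followed kept their direction in every alternative that could be fitted, and 34 kept their call. The cause of lost calls was not tested.

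At an adjusted p under 0.01, 1 of the 8 hyaluronan genes was higher, since Hyal2 no longer passed. With a mean of at least 5 CPM required, 0 of the 8 were called lower by edgeR, because Has1, Has2 and Tnfaip6 were then not tested. Leaving out single libraries gave 2 higher and 2 to 4 lower. With the replicate block the counts were 2 higher and 2 lower of the 8, 8 and 19 of the other pathway genes, 6 and 3 of the neighbours and 6725 of all genes, against 7113. Same-numbered libraries did not deviate together over all tested genes (correlations −0.0337, −0.00297 and 0.0243). Such correlations cannot exclude a pairing with small effects, and the labels do not say whether the numbers pair the samples. With the longest transcript as the length, levels were 1.07 (Has1), 0.963 (Hyal1) and 132 (Cd44) CPM per kb with DMSO, and 5.62 (Hyal1), 14.9 (Hyal2) and 124 (Cd44) CPM per kb with the inhibitor. Has1, Has2, Has3, Hyal3 and Tnfaip6 in both groups and Hyal1 with DMSO rest on under 100 counts a library, which limits the precision of their fold changes.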
